A study of Mus musculus with 12 samples.

Results

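The genes described here are 35 genes of the cell cycle and of DNA replication. They were chosen by symbol from a fixed list of textbook genes, and all 35 had a row among the 15584 genes of the deposited expression table. By role they comprised 5 genes of the G1 step, 9 genes of DNA synthesis and 21 genes that act from the S phase to the end of mitosis, which are called the mitotic genes below.

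RNA of mouse corpus callosum, the tract of myelinated axons between the hemispheres, was sequenced in 12 libraries, 3 in each of 4 groups. WT Ctrl and WT CPZ were wild-type mice without and with cuprizone, a copper chelator whose feeding kills oligodendrocytes and strips the tract of myelin. AHR CKO Ctrl and AHR CKO CPZ were the corresponding mice without the aryl hydrocarbon receptor (AHR, a ligand-activated transcription factor) in microglia, the macrophages of the brain. The comparisons asked how cuprizone acted in each genotype, how the genotypes differed within each treatment, and whether the effect of cuprizone differed between genotypes. No source used here gives the Cre line, the cuprizone dose or duration, or the age and sex of the mice. Nor does any state that replicates were different animals. The p-values thus reflect how far these libraries scatter, which may be technical.

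A dividing cell first makes D-type cyclins, which pair with CDK4 and its relative CDK6 to phosphorylate the retinoblastoma protein and free E2F factors. E2F then switches on cyclin E and the replication genes, among them the MCM helicase that opens the double helix, the sliding clamp PCNA, and the enzymes that make deoxynucleotides. Later the B-type cyclins with CDK1, the Aurora and Polo-like kinases, and kinesin motors build the spindle and part the chromosomes. In resting cells many of these late genes are held down by the DREAM complex, which binds an element called CHR in their promoters. In adult corpus callosum the cells known to divide are mainly oligodendrocyte precursors, microglia after injury, and progenitors of the nearby subventricular zone.

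Values are FPKM, that is, fragments per kilobase of transcript and per unit of library size. A rough estimate from the spacing of the lowest values gave 12700000 to 16400000 fragments per library, and no counts were rebuilt from it. Oligodendrocyte markers summed to between 2807 and 16878 FPKM per library over 8 genes, so RNA of these cells was abundant. The 8 neuron markers summed to between 1713 and 2710 FPKM, so RNA of neurons was present as well. Choroid plexus, the tissue that makes cerebrospinal fluid, varied widely between libraries, with 6 markers summing to between 43.5 and 3742 FPKM. The sums were 43.5 to 156 in WT Ctrl, 57.4 to 2989 in WT CPZ, 416 to 3585 in AHR CKO Ctrl and 1011 to 3742 in AHR CKO CPZ. In control tissue the genotypes did not overlap, although none of the 6 markers was called there. How much of this tissue was taken along and the genotype cannot be told apart in that comparison. The tissue was sequenced whole, so fewer cells of a type and less RNA per cell cannot be told apart.

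Most of the 35 genes were low. Only 4 had a mean of at least 10 FPKM over the 12 libraries (Cdk4, Ccnd1, Ccnd2 and Pcna), 18 had a mean between 1 and 10, and 13 had a mean under 1. Of the 420 values, 157 lay under FPKM 1 and none was at 0. In 7 genes all 12 libraries lay under 1 (Tyms, Cdk1, Bub1, Kif20a, Kif23, Cenpe and Cenpf), 14 genes lay on both sides of 1, and 14 were at 1 or above in every library. The number of genes under 1 ranged from 8 to 12 of 35 in WT Ctrl libraries and from 10 to 15 in WT CPZ. It ranged from 11 to 15 in AHR CKO Ctrl and from 15 to 17 in AHR CKO CPZ.

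**Figure D1:**
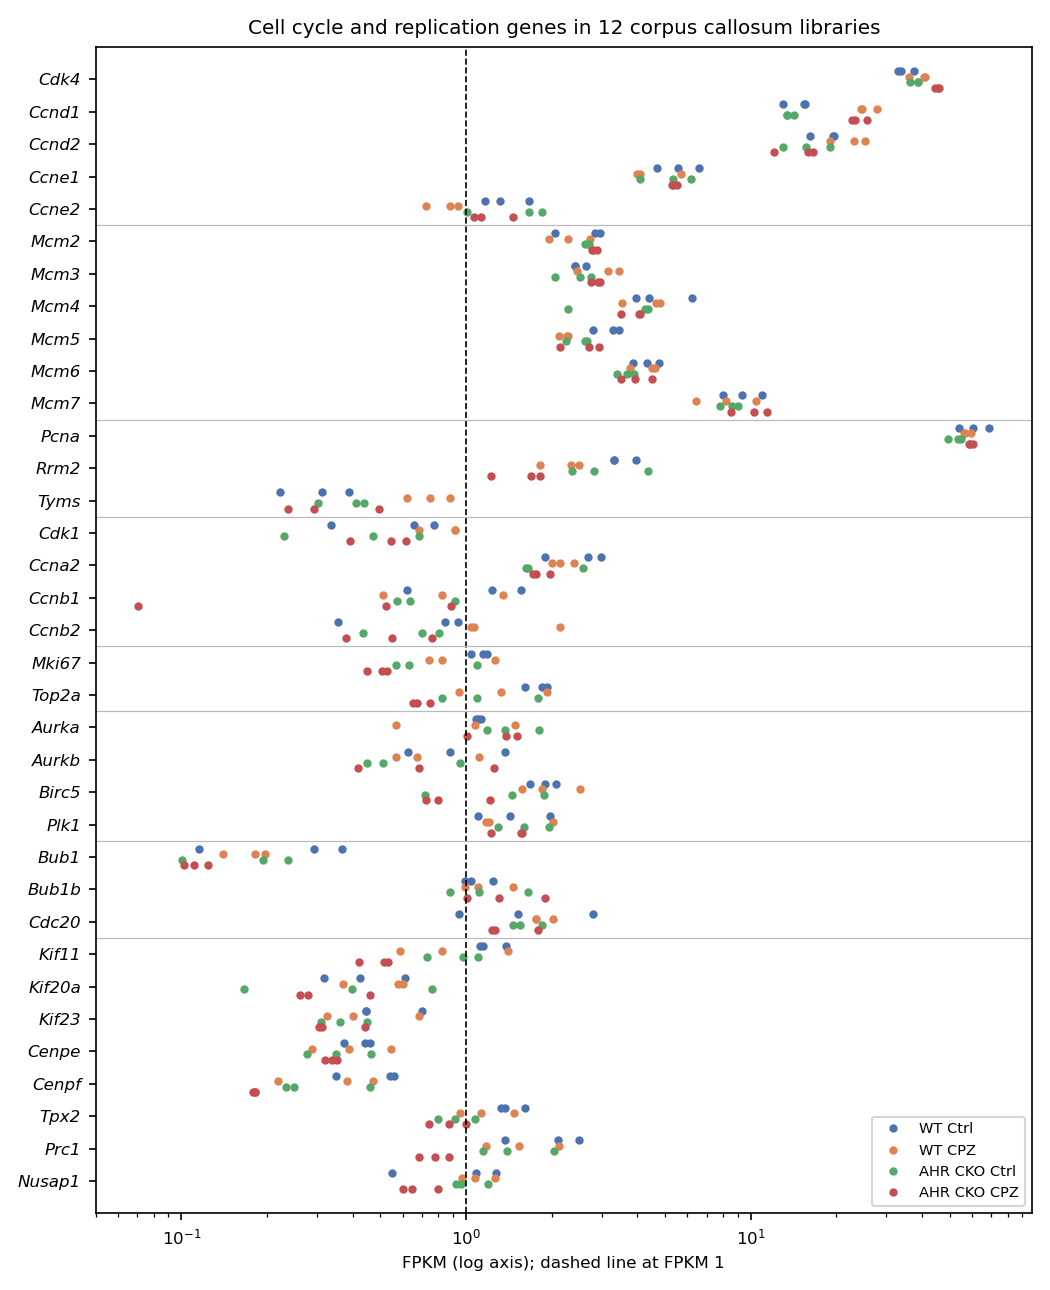
FPKM of each of the 35 genes (rows, ordered by role from the G1 step at the top to spindle proteins at the bottom) in 12 libraries, on a log axis, with 1 point per library coloured by group. The 4 genes with a mean of at least 10 FPKM are the only rows far to the right, and most mitotic genes lie around or under the dashed line at FPKM 1.

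The promoters are shown by step, since the same roles order the results below. RefSeq windows of 300 bases on GRCm38.p6, from 250 before to 50 after the transcription start, existed for 27 of the 35 genes, and Tpx2, Kif20a, Ccnd2, Mcm4, Ccna2, Ccnd1, Aurkb and Ccne2 had no entry. The windows were searched on both strands for the letters TTTGAA (the core of the CHR), for CCAAT (the NF-Y box), and for TTTCCCGC, TTTGGCGC, TTTCGCGC or TTTGCCGC (E2F sites). The motifs share no letters in the sequences printed here. A gene was counted when any of its windows held the letters. TTTGAA was present in 12 of 17 mitotic genes (70.6%), in 1 of 8 replication genes (Mcm2), and in 20.2% of all 27025 genes with a window. CCAAT was present in 22 of 27 of these genes (81.5%) and in 41.1% of all genes with a window. An E2F site was present in 5 of 27 (18.5%), against 2.6% of all genes with a window. Of the 5, 4 were MCM genes (Mcm3, Mcm5, Mcm6 and Mcm7) and the other was Cdk1. A match describes letters and not a bound site, and a window without them says nothing of the factor.

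The 250 bases before the start are given for the genes of each step whose values are followed below, 5′ to 3′ on the strand of the gene, with the motif letters in capitals. Cdk4 stands for the G1 step, Rrm2 for DNA synthesis, Birc5 for a called mitotic gene, and Mki67, Top2a and Cdk1 for mitotic genes with the CHR letters. The windows are chr10:127063285-127063534 (plus strand) for Cdk4, chr12:24708004-24708253 (plus) for Rrm2, chr11:117848987-117849236 (plus) for Birc5, chr7:135716380-135716629 (minus) for Mki67, chr11:99024190-99024439 (minus) for Top2a and chr10:69352913-69353162 (minus) for Cdk1.
Cdk4: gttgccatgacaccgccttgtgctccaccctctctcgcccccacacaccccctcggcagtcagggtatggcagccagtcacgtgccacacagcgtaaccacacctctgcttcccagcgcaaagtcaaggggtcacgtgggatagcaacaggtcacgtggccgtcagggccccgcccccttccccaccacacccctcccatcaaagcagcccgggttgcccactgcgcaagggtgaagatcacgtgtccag
Rrm2: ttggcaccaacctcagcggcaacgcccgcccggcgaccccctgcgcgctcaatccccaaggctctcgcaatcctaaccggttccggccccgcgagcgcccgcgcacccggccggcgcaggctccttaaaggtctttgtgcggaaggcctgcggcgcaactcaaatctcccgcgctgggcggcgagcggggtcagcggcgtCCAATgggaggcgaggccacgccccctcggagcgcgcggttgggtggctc
Birc5: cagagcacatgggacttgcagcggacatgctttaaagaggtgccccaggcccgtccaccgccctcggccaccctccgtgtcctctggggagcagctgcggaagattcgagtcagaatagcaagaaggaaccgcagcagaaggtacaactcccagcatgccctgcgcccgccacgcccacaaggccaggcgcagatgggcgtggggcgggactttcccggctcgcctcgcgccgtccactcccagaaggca
Mki67: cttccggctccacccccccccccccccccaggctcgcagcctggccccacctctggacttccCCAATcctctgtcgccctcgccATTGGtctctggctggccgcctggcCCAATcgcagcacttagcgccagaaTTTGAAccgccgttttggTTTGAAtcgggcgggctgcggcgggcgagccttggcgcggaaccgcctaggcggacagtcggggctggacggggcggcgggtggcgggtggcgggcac
Top2a: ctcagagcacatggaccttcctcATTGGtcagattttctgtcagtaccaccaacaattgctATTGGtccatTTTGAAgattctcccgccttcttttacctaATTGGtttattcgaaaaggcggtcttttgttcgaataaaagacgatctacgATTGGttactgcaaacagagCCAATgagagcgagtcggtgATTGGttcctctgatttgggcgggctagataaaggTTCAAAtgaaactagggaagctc
Cdk1: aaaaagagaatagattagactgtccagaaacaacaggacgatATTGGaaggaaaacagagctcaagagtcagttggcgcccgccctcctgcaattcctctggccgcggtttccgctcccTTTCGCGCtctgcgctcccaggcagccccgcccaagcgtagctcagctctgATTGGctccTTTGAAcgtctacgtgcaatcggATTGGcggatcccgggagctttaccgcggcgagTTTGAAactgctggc
The Mki67 window held TTTGAA at 116 and 98 bases before the start and 3 CCAAT boxes. Top2a held the CHR letters at 179 bases before the start on the plus sense and at 23 bases on the other strand, beside 6 CCAAT boxes. Cdk1 held TTTGAA at 71 and 15 bases before the start, 3 CCAAT boxes, and the E2F letters TTTCGCGC at 131 bases. Rrm2 held 1 CCAAT box at 50 bases before the start. No searched motif was found in the windows of Cdk4 and Birc5.

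In the G1 step Ccnd1 rose with cuprizone in both genotypes, Cdk4 rose slightly over both genotypes together, and Ccnd2 was lower in AHR CKO CPZ than in WT CPZ. A gene is called here when its adjusted p from limma, over all 13759 genes tested, lies under 0.05. Ccnd1 encodes cyclin D1, the mitogen-induced partner of CDK4 (chromosome 7 at 144929931 to 144939925, GRCm38, minus strand). Its levels were 15.4, 15.6 and 13.0 FPKM in WT Ctrl, 24.5, 27.8 and 24.6 in WT CPZ, 13.4, 13.4 and 14.2 in AHR CKO Ctrl, and 25.6, 22.7 and 23.2 in AHR CKO CPZ. Every cuprizone library was above every control library, and within a treatment the genotypes overlapped. The mean went from 14.7 ± 1.43 to 25.6 ± 1.90 FPKM in WT (SD, n = 3), a 1.75-fold level, and from 13.7 ± 0.429 to 23.8 ± 1.52 in AHR CKO, a 1.74-fold level. The difference in log2(FPKM + 1) was 0.77 ± 0.09 (SE) in WT (adjusted p = 9.53e-05, limma) and 0.76 ± 0.09 in AHR CKO (adjusted p = 0.000201). The difference between these 2 effects was -0.01, with a 95% interval from -0.29 to 0.27.

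Cdk4, the kinase that cyclin D1 activates, lies on chromosome 10 at 127063534 to 127067920 on the plus strand. It was at 32.9, 37.6 and 33.8 FPKM in WT Ctrl, 41.0, 35.9 and 40.7 in WT CPZ, 38.6, 36.3 and 38.7 in AHR CKO Ctrl, and 46.1, 44.2 and 45.6 in AHR CKO CPZ. The AHR CKO CPZ libraries were above all 9 others, whereas the WT groups overlapped. Over both genotypes Cdk4 rose by 0.21 ± 0.06 on the log2(FPKM + 1) scale (adjusted p = 0.0171, limma), and the adjusted p was 0.0504 without AHR CKO Ctrl replicate 2. Neither genotype alone passed (adjusted p = 0.182 in WT and 0.0665 in AHR CKO).

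Ccnd2 encodes cyclin D2, another partner of CDK4 and CDK6 (chromosome 6 at 127125162 to 127152193, minus strand). Its FPKM was 16.2, 19.4 and 19.6 in WT Ctrl, 23.1, 19.1 and 25.1 in WT CPZ, 19.0, 15.7 and 13.0 in AHR CKO Ctrl, and 12.04, 15.96 and 16.6 in AHR CKO CPZ. All 3 AHR CKO CPZ libraries lay under all 3 WT CPZ libraries, and the control groups of the genotypes overlapped. The mean was 14.9 ± 2.47 against 22.5 ± 3.09 FPKM, 0.663 times the WT CPZ level, and the difference in log2(FPKM + 1) was -0.57 ± 0.15 (adjusted p = 0.0264, limma). The call was lost without WT CPZ replicate 1, WT CPZ replicate 3 or AHR CKO CPZ replicate 1 (largest adjusted p = 0.113). The genotype by cuprizone interaction of Ccnd2 did not pass (-0.36 ± 0.22, adjusted p = 0.667). Cdk4, Ccnd1 and Ccnd2 each overlap another gene on the opposite strand in GENCODE M21 (Tspan31, LTO1, and a pair of antisense genes). No source used here gives the strand setting of the counting, so reads of such neighbours cannot be told apart from theirs.

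The cyclin E genes, whose products drive entry into the S phase with CDK2, passed in no comparison. Ccne1 ranged from 4.002 to 6.57 FPKM over the 12 libraries, with the 4 group means between 4.59 and 5.61. Ccne2 was lower, with 0.936, 0.725 and 0.882 FPKM in WT CPZ against 1.17, 1.32 and 1.66 in WT Ctrl. These WT groups did not overlap, but the difference of -0.36 in log2(FPKM + 1) had an adjusted p of 0.138 (limma).

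Among the replication genes, no MCM gene passed in any of the 6 comparisons, Pcna was high in every group, and Rrm2 fell with cuprizone. The 6 MCM genes encode the ring of the replicative helicase, and their sum was 26.9 ± 3.52 FPKM in WT Ctrl, 24.6 ± 1.23 in WT CPZ, 23.4 ± 1.49 in AHR CKO Ctrl and 26.2 ± 0.978 in AHR CKO CPZ. Mcm2 was at 2.84, 2.97 and 2.05 FPKM in WT Ctrl, 1.96, 2.29 and 2.74 in WT CPZ, 2.70, 2.69 and 2.62 in AHR CKO Ctrl, and 2.79, 2.78 and 2.88 in AHR CKO CPZ. The AHR CKO CPZ libraries of Mcm2 were above both the AHR CKO Ctrl and the WT CPZ libraries, by differences of 0.06 and 0.20 in log2(FPKM + 1) that did not pass (adjusted p = 0.829 and 0.258, limma). Mcm5 was nearest to a call, at 2.22 ± 0.0898 in WT CPZ against 3.18 ± 0.344 FPKM in WT Ctrl (log2 difference -0.37 ± 0.12, adjusted p = 0.0509). It was called without the filter on low values (adjusted p = 0.0488) and in the full set without AHR CKO CPZ replicate 1 or replicate 3. Of the other MCM genes, Mcm7 was the highest with group means from 8.36 to 10.1 FPKM and Mcm3 had group means from 2.44 to 3.02.

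Pcna, the clamp that holds DNA polymerase on its template and that also serves in DNA repair, was at 60.6, 69.0 and 54.1 FPKM in WT Ctrl and 56.0, 59.5 and 56.5 in WT CPZ. The AHR CKO Ctrl libraries were at 55.03, 53.5 and 49.5 and the AHR CKO CPZ libraries at 58.7, 60.2 and 58.8. This was the highest level per transcript length of the 35 genes, and the group means spanned only 52.7 to 61.2 FPKM. Its difference between the genotypes was -0.21 in control tissue (95% interval -0.40 to -0.01, adjusted p = 0.155, limma) and 0.05 under cuprizone (-0.15 to 0.24). The annotation names 2 Pcna pseudogenes, whose reads the authors' counting could have shared with it.

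Rrm2, the regulated subunit of ribonucleotide reductase that supplies deoxynucleotides in S phase, lies on chromosome 12 at 24708241 to 24714146 on the plus strand and overlaps no annotated gene. It was at 3.30, 3.94 and 3.32 FPKM in WT Ctrl, 2.49, 1.82 and 2.34 in WT CPZ, 4.35, 2.81 and 2.36 in AHR CKO Ctrl, and 1.69, 1.82 and 1.22 in AHR CKO CPZ. Control and cuprizone libraries did not overlap in either genotype, and AHR CKO Ctrl replicate 1 was the highest of all. Averaged over genotypes Rrm2 fell by 0.58 ± 0.12 in log2(FPKM + 1) (adjusted p = 0.00388, limma), and this call held without any single library. In AHR CKO it fell from 3.17 ± 1.04 to 1.57 ± 0.312 FPKM, 0.497 times the control level (adjusted p = 0.0265). That call was lost without AHR CKO Ctrl replicate 1, AHR CKO Ctrl replicate 2 or AHR CKO CPZ replicate 3 (largest adjusted p = 0.108). In WT the mean was 2.22 ± 0.353 against 3.52 ± 0.364 FPKM, which did not pass (adjusted p = 0.0703).

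Tyms, thymidylate synthase, makes the thymidine nucleotide and was too low for the main test. It was at 0.222, 0.313 and 0.389 FPKM in WT Ctrl, 0.880, 0.619 and 0.750 in WT CPZ, 0.303, 0.440 and 0.410 in AHR CKO Ctrl, and 0.292, 0.493 and 0.238 in AHR CKO CPZ. The WT CPZ libraries were above the other 9. Without the filter Tyms was higher in WT CPZ than in WT Ctrl (2.43-fold of means, adjusted p = 0.0122, limma) and lower in AHR CKO CPZ than in WT CPZ (0.455 times, adjusted p = 0.0237). Of all 15584 genes, 15.1% and 16.9% were called in these comparisons without the filter. These values rest on an estimated 8.51 to 37.5 fragments per library, and the annotation names a Tyms pseudogene.

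The 21 mitotic genes were low in every group. Their summed level was 26.1, 27.2 and 18.5 FPKM in WT Ctrl, 28.3, 18.6 and 21.3 in WT CPZ, 25.1, 17.4 and 16.7 in AHR CKO Ctrl, and 16.9, 16.6 and 14.5 in AHR CKO CPZ. The AHR CKO CPZ libraries lay under all WT libraries but overlapped AHR CKO Ctrl, and the other 3 groups overlapped widely. Within WT CPZ, replicate 1 was the highest library in 17 of the 21 genes and replicate 2 the lowest in 16. Within AHR CKO Ctrl, replicate 1 was the highest in 18 of 21, and within WT Ctrl, replicate 3 was the lowest in 17 of 21. In AHR CKO CPZ no such library stood out as clearly, with replicate 2 the highest in 11 of 21. Since the genes share their libraries, the 21 are not separate observations of a group.

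Mki67 encodes the Ki-67 antigen, the histological marker of cycling cells, and Top2a encodes the topoisomerase that untangles chromosomes. Mki67 was at 1.15, 1.18 and 1.04 FPKM in WT Ctrl, 1.26, 0.744 and 0.821 in WT CPZ, 1.09, 0.569 and 0.632 in AHR CKO Ctrl, and 0.448, 0.505 and 0.529 in AHR CKO CPZ. Top2a followed the same order of libraries within WT CPZ, with 1.85, 1.92 and 1.61 in WT Ctrl, 1.92, 0.942 and 1.33 in WT CPZ, 1.79, 1.10 and 0.824 in AHR CKO Ctrl, and 0.653, 0.746 and 0.673 in AHR CKO CPZ. In both genes the AHR CKO CPZ libraries were the 3 lowest of 12. Neither passed in any comparison as fitted, and the differences of AHR CKO CPZ from WT CPZ in log2(FPKM + 1) were -0.37 ± 0.15 for Mki67 (adjusted p = 0.0969, limma) and -0.48 ± 0.18 for Top2a (adjusted p = 0.0732). Both were called in this comparison with quantile normalization (adjusted p = 0.0386 and 0.0344, limma), which called 2921 of all 13759 genes. Both were also called with sample quality weights (0.0141 and 0.0021), which called 8036. Those weights were 6.93 for WT CPZ replicate 3 and 5.53 for AHR CKO CPZ replicate 2, so each group rested mainly on 1 library. Top2a was also called without WT CPZ replicate 2 (0.0368). The cuprizone difference of Top2a averaged over genotypes was called without WT CPZ replicate 1 (adjusted p = 0.0458) and without AHR CKO Ctrl replicate 3 (0.0485). Quantile normalization and sample quality weights each called it too (smallest adjusted p = 0.00834, limma), and in AHR CKO alone (0.0313). For Mki67 the averaged difference was called with quantile normalization (0.0232). In control tissue the weights called both genes between genotypes (0.0433 for Mki67 and 0.0487 for Top2a), beside 4477 of all genes. The cuprizone differences in WT were -0.14 for Mki67 (95% interval -0.46 to 0.19) and -0.24 for Top2a (-0.63 to 0.15).

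Birc5 encodes survivin, a subunit of the chromosomal passenger complex that also blocks apoptosis (chromosome 11 at 117849251 to 117855743, plus strand, with no overlapping gene). Its levels were 2.06, 1.89 and 1.68 FPKM in WT Ctrl, 2.52, 1.57 and 1.86 in WT CPZ, 1.89, 0.721 and 1.45 in AHR CKO Ctrl, and 0.801, 1.21 and 0.721 in AHR CKO CPZ. The AHR CKO CPZ libraries lay under all 6 WT libraries and overlapped AHR CKO Ctrl. Against WT CPZ the mean was 0.911 ± 0.262 to 1.98 ± 0.485 FPKM, 0.459 times the level, with a log2(FPKM + 1) difference of -0.64 ± 0.19 (adjusted p = 0.0371, limma). The call was lost without any of 5 libraries, WT Ctrl replicate 2, WT CPZ replicate 1, WT CPZ replicate 3, AHR CKO CPZ replicate 1 or AHR CKO CPZ replicate 3 (largest adjusted p = 0.127).

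Aurkb, the kinase of the passenger complex, had group means from 0.637 to 0.961 FPKM and Plk1, the Polo-like kinase, from 1.45 to 1.62. Aurka, the kinase of the spindle poles, was at 1.46 ± 0.319 in AHR CKO Ctrl and 1.30 ± 0.260 in AHR CKO CPZ, against 1.10 ± 0.0219 in WT Ctrl and 1.04 ± 0.458 in WT CPZ. None of these 3 passed in any comparison.

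Among the cyclins of S, G2 and M, Ccna2 (cyclin A2) had group means from 1.82 to 2.52 FPKM and Ccnb1 (cyclin B1) from 0.494 to 1.14. Ccnb2 (cyclin B2) was at 2.14, 1.05 and 1.06 FPKM in WT CPZ, against 0.847, 0.938 and 0.354 in WT Ctrl and 0.548, 0.378 and 0.759 in AHR CKO CPZ. Its WT CPZ libraries were above all others. The difference of AHR CKO CPZ from WT CPZ had an adjusted p of 0.054 (limma), or 0.0461 without the filter. Ccnb2 met the filter only through these 3 WT CPZ libraries, the only ones at FPKM 1 or above. Its test is therefore no separate support for their level. Cdk1, the kinase these cyclins activate, was under 1 in all libraries, with its highest mean of 0.841 ± 0.134 FPKM in WT CPZ and 0.517 ± 0.116 in AHR CKO CPZ.

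The spindle genes included the lowest levels of the set. Bub1, a checkpoint kinase, had group means from 0.112 to 0.257 FPKM, which rests on an estimated 4.53 to 15.3 fragments per library. Bub1b, another checkpoint component, and Cdc20, which activates the anaphase-promoting complex, had group means from 1.09 to 1.41 and from 1.43 to 1.85 and passed nowhere. Kif11, the motor that separates the spindle poles, was at 0.490 ± 0.0593 FPKM in AHR CKO CPZ against 0.938 ± 0.417 in WT CPZ (adjusted p = 0.123, limma). Prc1, which bundles microtubules of the central spindle, was at 0.777 ± 0.0928 against 1.61 ± 0.475 (adjusted p = 0.0582). Nusap1, a spindle-associated protein, was at 0.683 ± 0.104 against 1.10 ± 0.150, and Tpx2, which activates Aurora A, at 0.870 ± 0.128 against 1.19 ± 0.269. The motors Kif20a and Kif23 and the kinetochore proteins Cenpe and Cenpf had group means between 0.180 and 0.530 FPKM and were not tested.

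**Figure D2:**
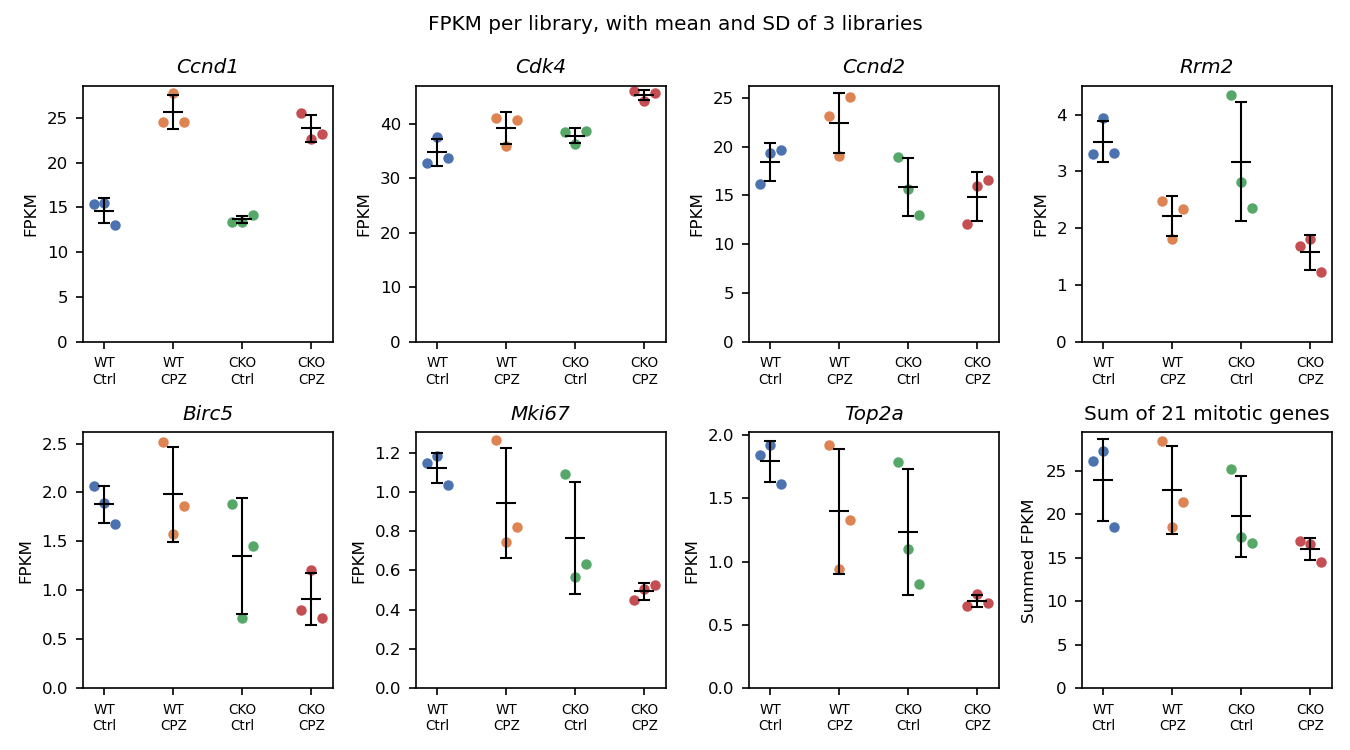
FPKM of 7 genes and the summed FPKM of the 21 mitotic genes (vertical axes, from 0) in each library of the 4 groups, where CKO stands for AHR CKO, with points for libraries and black marks for the mean and SD of 3. Ccnd1 is higher in both cuprizone groups, Ccnd2 and Birc5 are lower in AHR CKO CPZ than in WT CPZ, and Mki67, Top2a and the mitotic sum are lowest in AHR CKO CPZ.

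Few of the genes were called with cuprizone. Most of them are low, where log2(FPKM + 1) understates changes, so a missing call does not show that a gene was unchanged. The shares of all genes given beside them include many genes of higher level. In WT, 1 of the 28 tested genes was called, Ccnd1, against 16.9% of all genes tested. In AHR CKO, 2 of 28 were called, Ccnd1 higher and Rrm2 lower, against 10.2% of all genes. Averaged over genotypes 3 of 28 were called (Ccnd1 and Cdk4 higher, Rrm2 lower), against 23.2% of all genes. Over all 35 genes without the filter, the median difference in log2(FPKM + 1) was -0.09 in WT and -0.05 in AHR CKO, beside -0.03 and -0.01 over all 15584 genes. In WT, 3 of 35 genes had all cuprizone libraries above all controls and 3 had them below, against 15.1% and 17.8% of all genes. In AHR CKO these counts were 5 above and 7 below, against 13.8% and 13.6% of all genes, and 6 of the 7 below were mitotic. The 2 genotypes differed in none of the 28 tested genes by the interaction (limma), against 0.0363% of all genes, which is 5 genes.

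**Figure D3:**
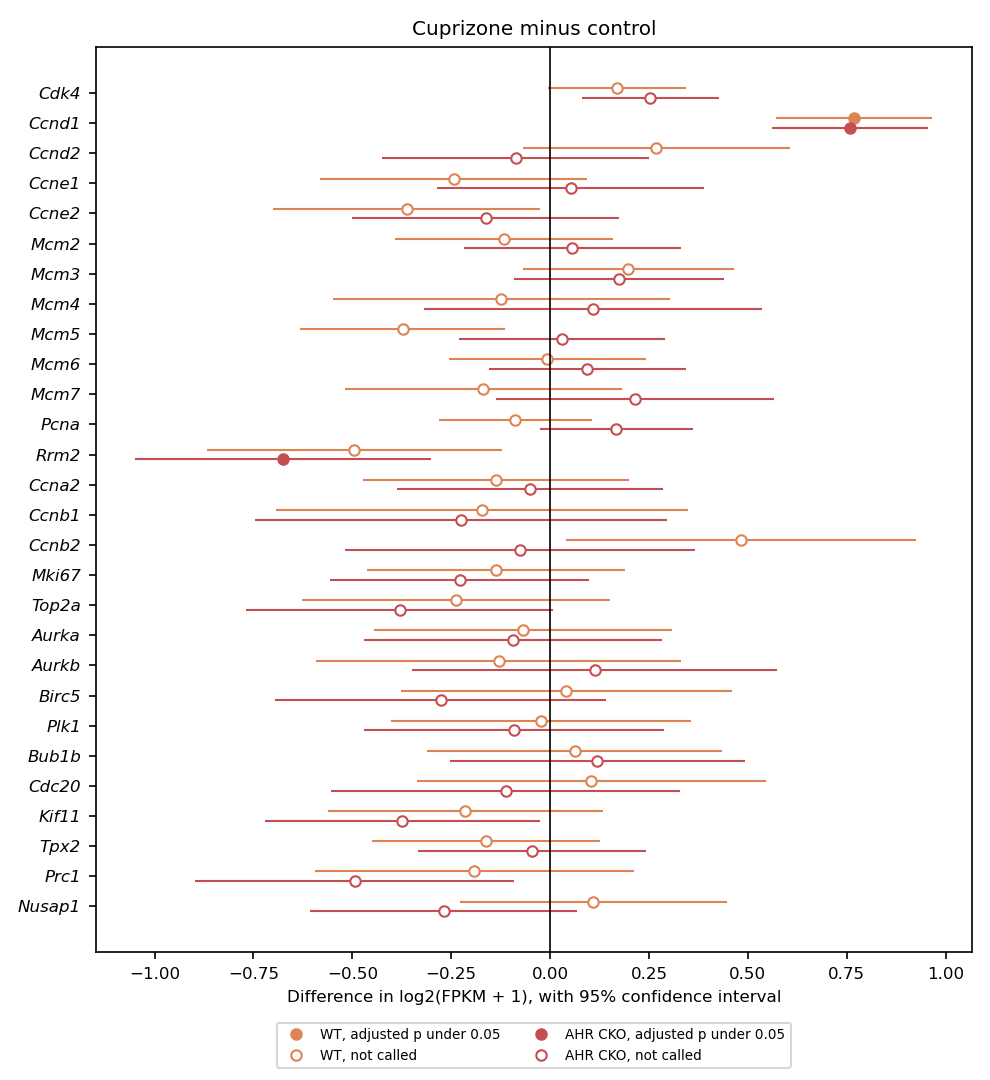
Difference in log2(FPKM + 1) between cuprizone and control (horizontal axis) with its 95% confidence interval for each of the 28 tested genes, in WT (orange) and AHR CKO (red). Filled points mark an adjusted p under 0.05, and Ccnd1 stands apart at 0.77 and 0.76 while most intervals include 0.

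Between genotypes 2 of the genes were called under cuprizone and none in control tissue. In control tissue no gene of 28 was called (limma), against 6.19% of all genes. The difference of AHR CKO Ctrl from WT Ctrl lay below 0 in 27 of the 35 genes, with a median of -0.13 beside -0.02 over all genes. In control tissue 1 of 35 genes had all AHR CKO libraries above all WT libraries and 3 had them below, against 12.8% and 20.4% of all genes. Without WT Ctrl replicate 3 the count below became 17 of 35, against 28.8% of all genes, and without AHR CKO Ctrl replicate 1 it became 14, against 26.3%.

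Under cuprizone 2 of 28 genes were called, Ccnd2 and Birc5, both lower in AHR CKO, against 20% of all genes. Neither remained called without WT CPZ replicate 1, without WT CPZ replicate 3 or without AHR CKO CPZ replicate 1, each of which left no gene of the set called. In 14 of the 35 genes all AHR CKO CPZ libraries lay below all WT CPZ libraries, against 18.6% of all genes, and 11 of these 14 were mitotic (Cdk1, Ccna2, Ccnb2, Mki67, Top2a, Birc5, Bub1, Kif11, Cenpf, Prc1 and Nusap1). The other 3 were Ccnd2, Rrm2 and Tyms. In 3 of the 35 genes they lay above (Cdk4, Ccne2 and Mcm2), against 17.9%. The median difference over the 35 genes was -0.12, beside 0.01 over all genes. The count of 14 ranged from 14 to 18 when any 1 of the 6 cuprizone libraries was left out, and the share of all genes then ranged from 20.2% to 26.6%. Rescaling each library to the same total lowered the AHR CKO CPZ libraries as a whole, by 0.12 in the median log2 difference of all genes from WT CPZ. The count was then 18 of 35, against 26.6% of all genes.

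Under that rescaling 21.2% of the called genes were higher in AHR CKO CPZ, against 45.8% as deposited. The genotype comparisons share libraries with the cuprizone comparisons. Low values in the AHR CKO CPZ libraries therefore enter both comparisons of that group. Of the mitotic genes only Birc5 was called in them, against WT CPZ. The mitotic sums of AHR CKO CPZ overlapped those of AHR CKO Ctrl. The interaction, which compares the effect of cuprizone between genotypes, passed for no gene of the set.

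**Figure D4:**
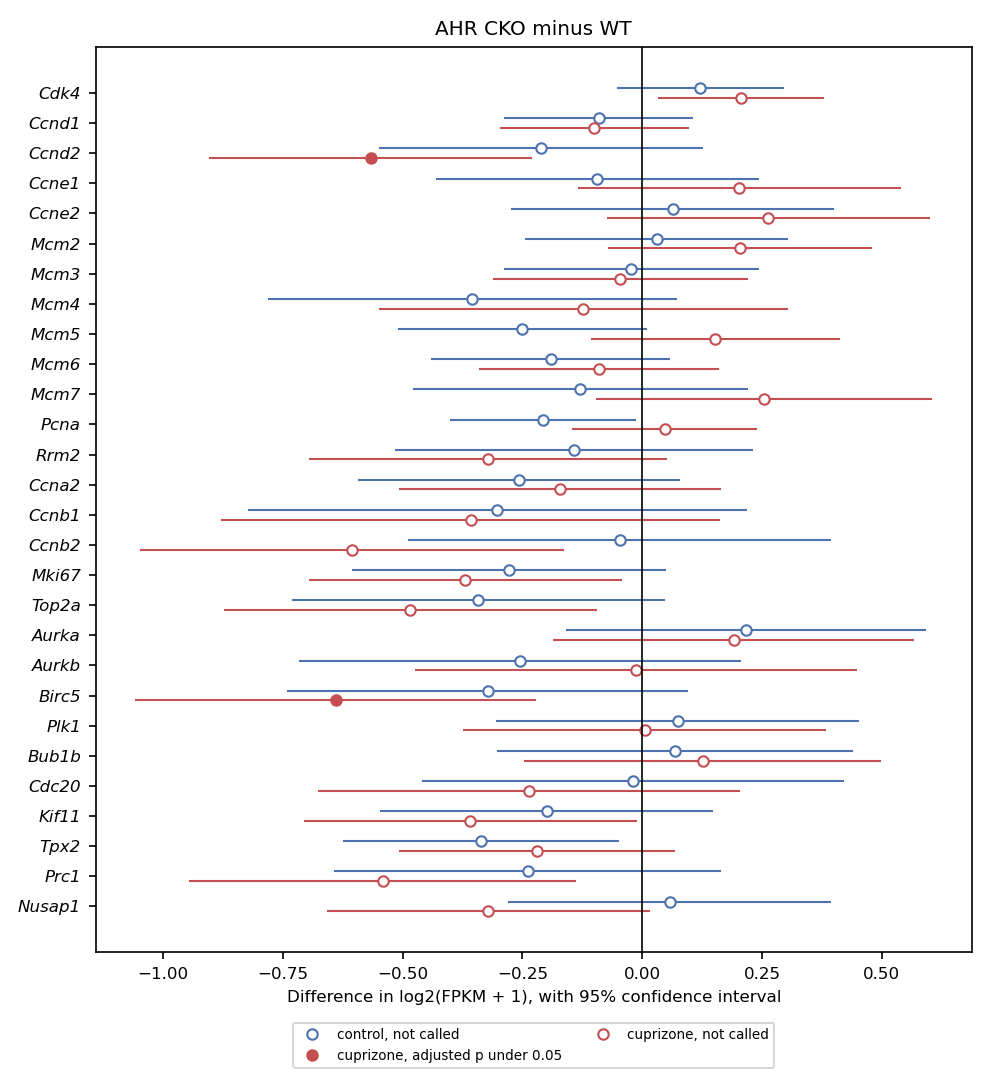
Difference in log2(FPKM + 1) between AHR CKO and WT (horizontal axis) with its 95% confidence interval for each of the 28 tested genes, in control tissue (blue) and under cuprizone (red). Filled points mark an adjusted p under 0.05, which Ccnd2 and Birc5 reached under cuprizone, at -0.57 and -0.64.

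Among genes that restrain or steer the cycle, Cdkn1a and Myc rose with cuprizone in both genotypes, and Rb1 and Rbl2 were lower in AHR CKO under both treatments. Of 6 tested CDK inhibitors, Cdkn1a, which encodes the p53 target p21, rose with cuprizone from 10.2 ± 1.14 to 45.5 ± 13.2 FPKM in WT (adjusted p = 1.2e-05, limma) and from 11.9 ± 1.28 to 53.9 ± 6.77 in AHR CKO (adjusted p = 1.81e-05). Cdkn1c, which encodes p57, was higher in AHR CKO CPZ than in WT CPZ, at 9.0004 ± 2.72 against 4.15 ± 1.30 FPKM (adjusted p = 0.0256). The other inhibitors passed in no comparison, so that 16.7% of the list was called in WT, in AHR CKO and between genotypes under cuprizone, against 16.9%, 10.2% and 20% of all genes.

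Of 13 other tested cyclins and kinases, 3 were called in WT (23.1%, against 16.9% of all genes). Ccnd3, the third D-type cyclin, rose from 13.6 ± 2.45 to 19.8 ± 2.67 FPKM (adjusted p = 0.0235, limma). Ccng1, cyclin G1 and another p53 target, rose from 27.7 ± 1.93 to 40.7 ± 1.92 (adjusted p = 0.00186), and Pkmyt1, a kinase that inhibits CDK1, fell from 4.44 ± 1.01 to 2.05 ± 0.320 (adjusted p = 0.00234). In AHR CKO only Ccng1 of these 13 was called (7.69%, against 10.2% of all genes), from 22.9 ± 1.499 to 30.5 ± 3.82 (adjusted p = 0.0212). Ccng1 and Wee1, which inhibits CDK1, were lower in AHR CKO CPZ than in WT CPZ (adjusted p = 0.0158 and 0.0318), which is 15.4% of the list against 20% of all genes.

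Of 16 tested genes of the RB, E2F and DREAM group, 2 were called in WT (12.5%, against 16.9% of all genes), 1 in AHR CKO (6.25%, against 10.2%), 3 between genotypes in control tissue (18.8%, against 6.19%) and 2 between genotypes under cuprizone (12.5%, against 20%). Myc, which drives entry into the cycle, rose from 2.41 ± 0.176 to 5.86 ± 0.837 FPKM with cuprizone in WT (adjusted p = 5.93e-05, limma) and from 2.42 ± 0.220 to 7.52 ± 0.491 in AHR CKO (adjusted p = 1.81e-05). Rb1, the retinoblastoma gene, was lower in AHR CKO than in WT in both treatments, at 7.47 ± 1.10 against 12.1 ± 1.005 FPKM in control tissue (adjusted p = 0.0307) and at 7.71 ± 1.23 against 10.9 ± 1.14 under cuprizone (adjusted p = 0.0316). Rbl2, which encodes the DREAM pocket protein p130, was also lower in both, at 12.2 ± 0.942 against 17.5 ± 0.971 and at 10.5 ± 0.666 against 15.3 ± 0.495 (adjusted p = 0.0227 and 0.00589). Tfdp2, a partner of E2F, fell with cuprizone in WT (adjusted p = 0.0157) and was lower in AHR CKO Ctrl than in WT Ctrl (adjusted p = 0.0387). The control comparison as a whole rested on few libraries, with 4 to 1431 genes called when 1 was left out.

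Of 35 further replication genes tested, 3 fell in WT with cuprizone (Gins4, Prim1 and Uhrf1), and 1 rose in AHR CKO, Cdt1, which loads the MCM ring onto DNA. Cdt1 went from 1.501 ± 0.521 to 2.55 ± 0.175 FPKM (adjusted p = 0.0418, limma). Under cuprizone Cdt1 and Fen1, a nuclease of the lagging strand, were higher in AHR CKO than in WT (adjusted p = 0.0387 and 0.0451, limma). No gene of this list was called between genotypes in control tissue. The shares called were 8.57% in WT, against 16.9% of all genes, 2.86% in AHR CKO, against 10.2%, and 5.71% between genotypes under cuprizone, against 20%. Of 27 further mitosis genes tested, 3 fell in WT (Bub3, Mad1l1 and Anln) and 1 in AHR CKO (Anln), which is 11.1% and 3.7% of the list against the same 16.9% and 10.2%. Anln, which is also abundant in myelinating oligodendrocytes, went from 37.0 ± 10.4 to 4.45 ± 1.78 FPKM in WT (adjusted p = 7.97e-06). Smc2, a condensin subunit, was lower in AHR CKO than in WT in control tissue (2.03 ± 0.414 against 3.63 ± 0.493 FPKM, adjusted p = 0.0348) and under cuprizone (1.73 ± 0.300 against 3.08 ± 0.334, adjusted p = 0.0164). Under cuprizone Mad1l1 and Fzr1 were higher in AHR CKO (adjusted p = 0.0257 and 0.0311). Between genotypes 7.41% of the mitosis list was called in control tissue, against 6.19% of all genes, and 11.1% under cuprizone, against 20%. None of the genes of these 5 lists had an interaction call.

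Markers of the cells that can divide in this tissue were measured in the same libraries. The 10 microglia markers summed to 278 to 301 FPKM in WT Ctrl, 928 to 1371 in WT CPZ, 249 to 255 in AHR CKO Ctrl and 619 to 1021 in AHR CKO CPZ. Of them, 7 were called higher with cuprizone in WT (70%) and 6 in AHR CKO (60%), against 16.9% and 10.2% of all genes. In AHR CKO CPZ 40% of them were called lower than in WT CPZ, against 20% of all genes, and Csf1r, Itgam and Ptprc were among these. Within WT CPZ, replicate 1 had both the highest microglia sum and the highest mitotic sum, whereas within AHR CKO CPZ replicate 3 had the highest microglia sum (1021 FPKM) and the lowest mitotic sum (14.5). The 8 oligodendrocyte precursor markers summed to 65.5 to 91.4 FPKM over all libraries, and none of them was called in any comparison. WT Ctrl replicate 3 had the lowest precursor sum and the lowest mitotic sum of its group, whereas AHR CKO CPZ replicate 3 had the highest precursor sum of its group (87.2 FPKM) with the lowest mitotic sum. The 12 markers of subventricular zone progenitors and neuroblasts summed to 63.6 to 103 FPKM. Among them Nes rose with cuprizone in both genotypes, and Sox11 fell in AHR CKO (adjusted p = 0.0106, limma) and was lower in AHR CKO CPZ than in WT CPZ (adjusted p = 0.0397). The shares of this list called were 8.33% in WT, 16.7% in AHR CKO and 8.33% between genotypes under cuprizone. Those of all genes were 16.9%, 10.2% and 20%. AHR CKO Ctrl replicate 1 had the highest progenitor sum and the highest mitotic sum of its group, whereas WT Ctrl replicate 3 had the highest progenitor sum of its group (91.3 FPKM) with the lowest mitotic sum (18.5). The precursor sums ordered the libraries as the mitotic sums did in WT Ctrl, WT CPZ and AHR CKO Ctrl, and in reverse in AHR CKO CPZ. For microglia the order was the same in WT Ctrl and WT CPZ, and the reverse in AHR CKO Ctrl and AHR CKO CPZ. For progenitors it was the same in WT CPZ and AHR CKO Ctrl, and neither the same nor the reverse in WT Ctrl and AHR CKO CPZ. With 3 libraries in a group, such an order says little. The part of these cells in the values of the cell cycle genes was not tested.

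**Figure D5:**
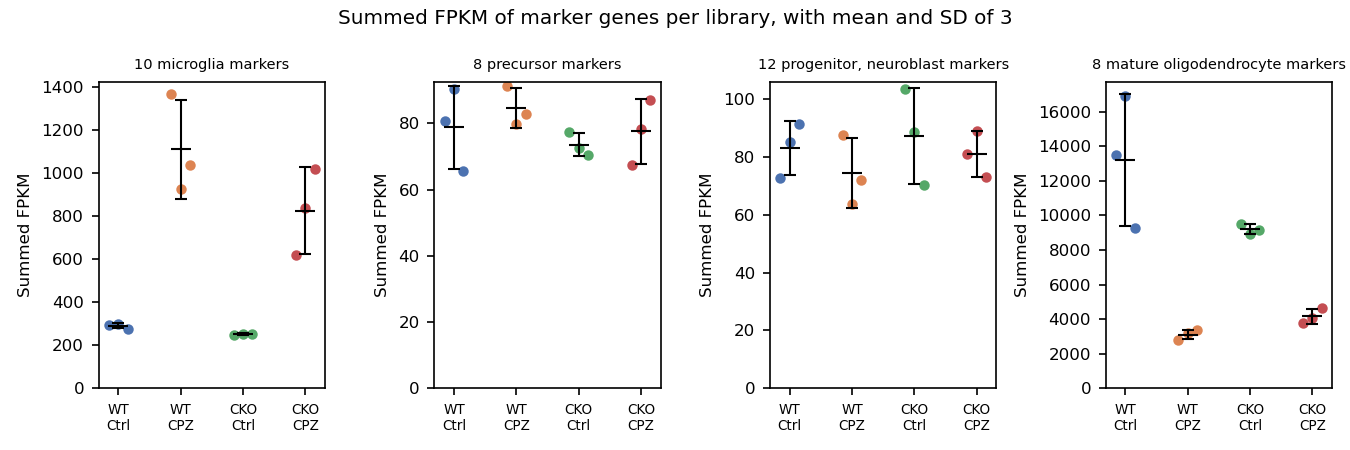
Summed FPKM (vertical axes, from 0) of the markers of microglia, oligodendrocyte precursors, subventricular zone progenitors with neuroblasts, and mature oligodendrocytes in each library, where CKO stands for AHR CKO, with black marks for the mean and SD of 3. Microglia markers are higher and mature oligodendrocyte markers lower under cuprizone in both genotypes, the precursor sums of AHR CKO Ctrl lie under those of WT CPZ, and in the other 2 sums the remaining pairs of groups overlap.

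The other marker lists gave these results. All 8 mature oligodendrocyte markers fell with cuprizone in both genotypes, and their sums were 9273 to 16878 FPKM in WT Ctrl, 2807 to 3348 in WT CPZ, 8938 to 9509 in AHR CKO Ctrl and 3761 to 4624 in AHR CKO CPZ. Of 8 astrocyte markers 5 rose in each genotype (62.5%). Of all genes, 16.9% were called with cuprizone in WT and 10.2% in AHR CKO. None of 8 neuron, 8 endothelium or 6 choroid plexus markers passed with cuprizone in either genotype, 1 of 8 pericyte and smooth muscle markers fell in WT (Kcnj8) and 1 of 6 ependyma markers fell in WT (Ccdc153). Between genotypes under cuprizone, 3 mature oligodendrocyte markers (37.5%) and 2 ependyma markers (33.3%) were called higher in AHR CKO. Of the pericyte and smooth muscle markers, 3 were called higher and 1 lower (50%). The astrocyte marker Slc1a2 and the endothelium marker Flt1 were called lower (12.5% of each list). Of all genes 20% were called in this comparison. In control tissue Aspa and Slc1a2 were lower and Vtn was higher in AHR CKO, each 12.5% of its list, against 6.19% of all genes. Aspa and Opalin, both mature oligodendrocyte markers, were called by the interaction (25% of the list), against 0.0363% of all genes. Of the blood list 4 of 11 genes were in the table and 2 were tested, the red cell genes Hba-a1 and Alas2. Both were called lower in AHR CKO in both treatments, against 6.19% of all genes in control tissue and 20% under cuprizone. The 4 genes summed to 80.4 to 115 FPKM in WT Ctrl, 32.1 to 215 in WT CPZ, 4.48 to 7.34 in AHR CKO Ctrl and 1.94 to 29.2 in AHR CKO CPZ. Within each treatment the genotypes did not overlap, so blood content and genotype cannot be told apart in these comparisons.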

How the data were processed

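The authors deposited 1 table of FPKM values for 15584 genes and 12 libraries, per the file headers. Per the labels' protocols, a Qiagen kit yielded total RNA and a SMARTER kit the libraries. The genome build was GRCm38, also called mm10, per the submitters' processing notes. No source used here names the aligner, the quantifier or the annotation. FPKM hides the read number and lets very abundant genes shift all others.

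A gene was tested if 3 or more of the 12 libraries reached FPKM 1, which left 13759 genes and 28 of the 35. Values were taken as log2(FPKM + 1), which understates changes of low genes. In limma 3.58.1 (R 4.3.3, eBayes with trend), all libraries entered 1 model of the 4 groups, with two-sided p-values, Benjamini-Hochberg adjustment within each comparison and a threshold of 0.05. An exact permutation test of 3 against 3 libraries cannot go below 0.1 and was not used. Means are of FPKM with SD, and folds are ratios of means. Depth was estimated from the periodicity of low FPKM times length minus 200 bases in 1481 genes. Gene positions came from GENCODE M21 and promoters from RefSeq. The pipeline was tested on simulated data.

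All 35 genes are accounted for. Values in every library are given for called genes and for Mki67, Top2a, Ccnd1, Pcna and Mcm2. Tyms, Ccnb2 and Ccne2 were added after their values were seen. The members and all lists were chosen with earlier results of these data known.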

Additional observations from a re-analysis of the deposited data

How the results depend on the processing

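Ccnd1 stayed called in both genotypes under every alternative, and no called result changed direction, whereas some uncalled differences near 0 changed sign, such as that of Pcna in WT. Counts of the called cell cycle genes are given in the order WT cuprizone, AHR CKO cuprizone, genotype in control, genotype under cuprizone, interaction and average, where they were 1, 2, 0, 2, 0 and 3. Without the filter they became 3 in WT and 4 for genotype under cuprizone, beside 2355 and 2629 of all 15584 genes, with 1 interaction gene in all. With a mean of at least 5 FPKM, which left 6 of the 35 genes, they became 1 in AHR CKO and 1 for genotype under cuprizone. Of all genes, 901 and 2400 were then called. Rescaling to a common total (TPM) gave 4 for genotype under cuprizone, beside 2955 of all genes. It moved the share of higher calls in AHR CKO cuprizone from 70.8% to 59%, and quantile normalization moved it to 60.1%. Quantile normalization gave 4 in WT, 5 in AHR CKO, 7 for genotype under cuprizone and 9 on average, beside 2466, 1524, 2921 and 3548 of all 13759 genes.

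Sample quality weights, which ranged from 0.338 to 6.93, gave 8, 11, 8, 14, 4 and 10 of these genes, and 5100, 4846, 4477, 8036, 2556 and 5911 of all genes. Without a trend in the variance the counts were 2 in WT and 4 for genotype under cuprizone, beside 2278 and 2631 of all genes, with 2 interaction genes in all. With only the groups compared they were 2 in WT, 1 in AHR CKO and 0 for genotype under cuprizone. All genes were then 1880 in WT, 1172 in AHR CKO, 127 for genotype in control and 1070 under cuprizone. Rrm2 in AHR CKO, Birc5 and Ccnd2 lost their calls there. No filter with a pseudocount of 0.1, chosen after seeing the data, gave 2 in WT and 4 for genotype under cuprizone. All genes were then 2355 in WT, 2598 for genotype under cuprizone and 543 for genotype in control. The count of genes whose groups do not overlap, also added after seeing the data, stayed between 14 and 18 for genotype under cuprizone.

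Same-numbered libraries did not deviate together (median correlation -0.13, range -0.34 to 0.25, over 0.1 in 3 of 18 pairs), and 3 of 12 libraries correlated best with their own number, so the numbers were not taken as pairs. The replicate block gave 1 called gene for genotype under cuprizone (Prc1, without Birc5 and Ccnd2), and 51, 1806 and 0 genes in all for genotype in control, genotype under cuprizone and the interaction.

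Leaving out 1 library gave 1 to 2 called genes of the set in WT, 1 to 2 in AHR CKO, 0 for genotype in control, 0 to 4 under cuprizone, 0 for the interaction and 2 to 6 on average. For all genes it gave 1587 to 2443, 842 to 1557, 4 to 1431, 776 to 3305, 0 to 103 and 2528 to 3360. The cause of these moves was not tested. Depth is thinnest for the lowest mitotic genes, where Ccnb1 and Bub1 rest on an estimated 2.24 and 4.53 fragments in their lowest libraries.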
